A study of Mus musculus with 6 samples.

Results

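Upstream Quaking (Qk) peaks are here the anti-PanQk peaks that lie nearest the 5′ side of the stretch of a transcript on which peaks were listed. For each Ensembl gene ID, the outermost peaks of the anti-PanQk and control lists combined bound what is called the span of that locus. Loci with at least 5 anti-PanQk peaks and a span of at least 5000 nt on a nuclear chromosome were eligible, and an upstream peak has its midpoint in the first 10% of the span in transcript direction. The members were thus selected on the listed positions and numbers of the peaks themselves. By this rule 1296 peaks were upstream peaks, out of 10164 anti-PanQk peaks at 999 eligible loci and 22488 anti-PanQk peaks in all. They fell under 836 gene IDs. "Upstream" refers to the listed peaks and not to an annotated transcript start, which was not used here.

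The peaks come from iCLIP, which fixes RNA-binding proteins to RNA with ultraviolet light, recovers them with an antibody and sequences the RNA fragments that stay attached. The cells were C2C12, an immortalised line of mouse myoblasts (muscle precursor cells that can fuse into myotubes), irradiated with 400 mJ. The 6 libraries of the series form 5 groups. Myoblasts were used with the antibodies anti-PanQk, anti-Qk6, anti-Qk7 and, as the control, anti-HA, and myotubes (72 h) with anti-PanQk. The peaks described here come from the myoblasts, with 1 anti-PanQk library and 1 control library. The other libraries were not analysed here. With 1 library per antibody there is no replicate and no test between the antibodies, and the intervals in parentheses below are exact Clopper-Pearson 95% intervals that cover counting error only.

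Quaking proteins belong to the STAR family of RNA-binding proteins and recognise a short motif with the core ACUAA together with a nearby part of the same motif. The nuclear isoform is known for regulating alternative splicing and the formation of circular RNAs from binding sites in introns, while the cytoplasmic isoforms act on transcript stability and translation, mostly through 3′ untranslated regions. In muscle cells Quaking is known as a regulator of the alternative splicing that accompanies differentiation. An antibody to all isoforms, such as anti-PanQk, cannot tell these roles apart, and pre-mRNA and spliced mRNA both give peaks.

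Most upstream peaks were the first peak of their locus, as the rule requires. Of the 1296, 768 began exactly at the start of the span, 1 per locus, and were members by construction. The other 528 lay further in, at 284 loci. The span started at an anti-PanQk peak alone at 765 loci, at a control peak alone at 231 and at peaks of both lists at 3. All 163 loci without an upstream anti-PanQk peak were loci whose span started at a control peak. The spans ranged from 5026 to 2773644 nt with a median of 46012 nt, so that the window was 503 nt wide at the shortest locus, 4601 nt at the median and 277364 nt at the longest.

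The values at the edge of the window show how sharp the limit is. The 3 peaks just inside it had midpoints at 9.82%, 9.90% and 9.94% of the span and 3 reads each. The 3 just outside lay at 10.02%, 10.03% and 10.03%, with 4, 3 and 3 reads. Nothing in read number set these neighbours apart.

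Along the span, anti-PanQk peaks were dense at the downstream end and had a smaller rise at the upstream end. The first 10% held 12.8% (12.1 to 13.4) of the 10164 peaks, the second 2.83% (2.52 to 3.17) and the last 52.6% (51.6 to 53.5). Leaving out the peaks that set either end of the span, 528 of 8516 remained in the first 10%, or 6.20% (5.70 to 6.73), beside 288 in the second 10%, or 3.38% (3.01 to 3.79), and 52.4% (51.3 to 53.5) in the last. Of these 528, 121 came from 8 loci with 9 or more upstream peaks each. The control peaks of the same loci, placed in the same way, were 18.8% (17.3 to 20.3) in the first 10% and 36.8% (35.0 to 38.7) in the last. Without the peaks at either end the control had 11.6% (10.3 to 13.0) in the first 10%, 5.15% (4.29 to 6.12) in the second and 37.3% (35.3 to 39.3) in the last. The rise in the first 10% was thus listed for both antibodies. Of all 504 control peaks in the first 10%, 25, 21, 14, 13 and 12 lay at the 5 loci with the most. How the shares compare between the antibodies was not tested, as each has 1 library and peaks of a locus are not independent.

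**Figure D1:**
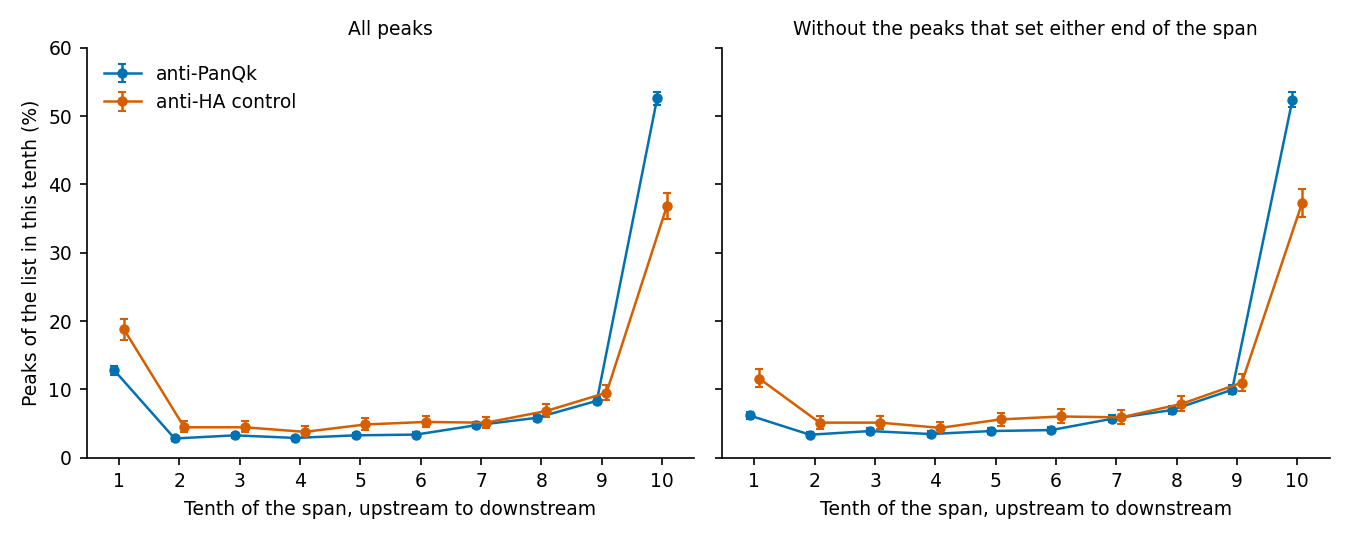
Share of the anti-PanQk (blue) and anti-HA control (orange) peaks of the 999 eligible loci in each 10% of the span, from upstream to downstream, with exact 95% intervals. The left panel counts all peaks and the right panel leaves out those that set either end; in the first 10% the shares are 18.8% and 11.6% for the control and 12.8% and 6.20% for anti-PanQk, in these 2 single libraries.

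Upstream peaks that set the start of the span lay nearer to it at the median than the others, but the ranges overlapped. Midpoints of the former reached 63 nt from the start, while the nearest of the others lay at 3.5 nt. Those that set the start had their midpoint a median of 15 nt from it, which is set by their own width. The other 528 lay a median of 1230 nt from the start (quartiles 256 and 4654, highest 132746). Of these, 67 lay within 100 nt, 239 within 1000 nt and 406 within 5000 nt. Upstream peaks were on both strands, with 629 on the plus and 667 on the minus strand.

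Upstream peaks were mostly weak and narrow. Their median was 3 reads (quartiles 3 and 5), which is the smallest number listed, and 713 of them (55%) had 3 reads. The middle 80% of the same spans also had a median of 3 reads (quartiles 3 and 5), while the last 10% had a median of 5 (quartiles 3 and 10), with 27.1% of its 5342 peaks at 3 reads. The median was 3 reads (quartiles 3 and 4) for peaks that set the start and 4 (quartiles 3 and 7) for the other upstream peaks. The deposited p-value was at most 1e-06 for 145 upstream peaks, or 11.2% (9.52 to 13.0), beside 19.4% of all anti-PanQk peaks. It was so for 12.4% (11.3 to 13.5) of the middle and 29.9% (28.6 to 31.1) of the last 10%. In width, upstream peaks had a median of 31 nt (quartiles 10 and 42), the middle 32 nt (10 and 43) and the last 10% 41 nt (18 and 57). These widths pool both strands. Many upstream peaks of 3 reads were at most 10 nt wide on the plus strand, while many on the minus strand were 32 nt or wider. Widths were not summarised by strand.

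The same order held within loci. At 805 loci with peaks at both ends, the median read number was lower upstream than in the last 10% at 453, higher at 147 and equal at 205. The median width was smaller upstream at 579 of these loci and larger at 200, with a median difference of -11 nt. Against the middle of the span there was no such order: over 753 loci the read median was lower upstream at 251, higher at 219 and equal at 283. The strongest anti-PanQk peak of the locus lay upstream at 86 loci, in the middle at 204 and in the last 10% at 596, with ties between these parts at the other 113.

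**Figure D2:**
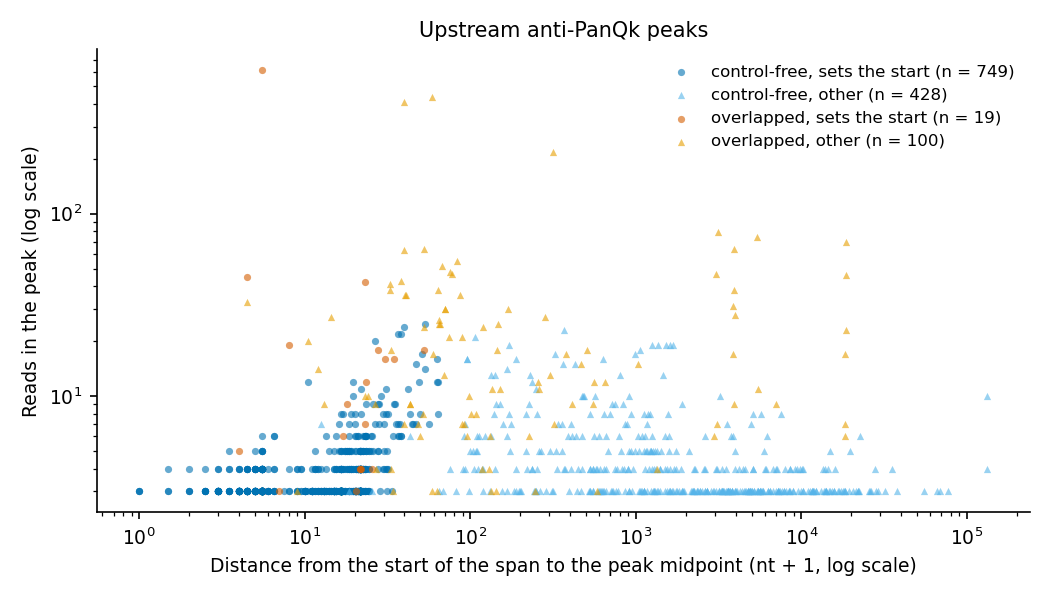
Reads per peak against the distance from the start of the span to the peak midpoint for the 1296 upstream anti-PanQk peaks, both on log scales. Blue points have no overlapping control peak and orange points have one, and circles mark the 768 peaks that set the start of the span; no blue point exceeds 25 reads.

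A small part of the upstream peaks was shared with the control. No control peak overlapped 1177 of the 1296, or 90.8% (89.1 to 92.3), and these are called control-free. Over all anti-PanQk peaks the share was 86.0%, and over all peaks of the eligible loci 85.8%. In the middle of the spans it was 91.6% (90.6 to 92.5) and in the last 10% 80.8% (79.7 to 81.9). The share depended on which upstream peaks were counted. It was 97.5% (96.2 to 98.5) for the peaks that set the start, which by construction begin ahead of or level with every control peak of their locus, and 81.1% (77.5 to 84.3) for the other 528. More than 100 nt from any control peak were 1141 upstream peaks, or 88% (86.1 to 89.8), beside 78.2% of all anti-PanQk peaks and 86.1% (84.9 to 87.2) of the middle. Here too the peaks that set the start carried the value, with 96.1% (94.5 to 97.3), while the other 528 had 76.3% (72.5 to 79.9). More than 1000 nt away were 1058 upstream peaks, or 81.6% (79.4 to 83.7), made up of 92.7% (90.6 to 94.4) of those that set the start and 65.5% (61.3 to 69.6) of the others. At that distance the middle had 72.5% (71.0 to 73.9) and the last 10% 44.2% (42.9 to 45.6).

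Read number moved with control overlap in every part of the span. Among the upstream peaks with 3 reads, 98.6% (97.4 to 99.3) were control-free, beside 98.0% (97.3 to 98.6) in the middle and 94.9% (93.6 to 96.0) in the last 10%. With 6 to 9 reads the 3 shares were 80.9% (73.4 to 87.0), 83.4% (79.5 to 86.8) and 81.7% (79.5 to 83.9), and their intervals overlapped. With 10 to 26 reads, 51 of 89 upstream peaks were control-free, or 57.3% (46.4 to 67.7), beside 70.1% (64.6 to 75.2) in the middle and 66.0% (63.2 to 68.8) in the last 10%, and the intervals overlapped. All 34 upstream peaks with 27 or more reads, at 13 loci, were overlapped by a control peak. A count of 0 control-free peaks among 34 allows a share of up to 8.82% when taken as 3 counts of the total, and of up to 10.3% by the exact interval. Both limits treat the 34 peaks as independent, which peaks of the same locus are not, so the true limit is wider. With 27 to 50 reads, 0 of 22 upstream peaks (0 to 15.4) were control-free, beside 12.5% (4.19 to 26.8) in the middle, whose interval overlaps it, and 28.0% (21.5 to 35.3) in the last 10%. Above 50 reads, 0 of 12 upstream peaks (0 to 26.5) were control-free. The share in that class was 4.35% (0.110 to 21.9) in the middle and 6.49% (2.14 to 14.5) in the last 10%, and the intervals overlapped. The control-free upstream peaks had 3 reads at the median (quartiles 3 and 4, highest 25). The 119 overlapped ones had 13 (7 and 30, highest 612).

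**Figure D3:**
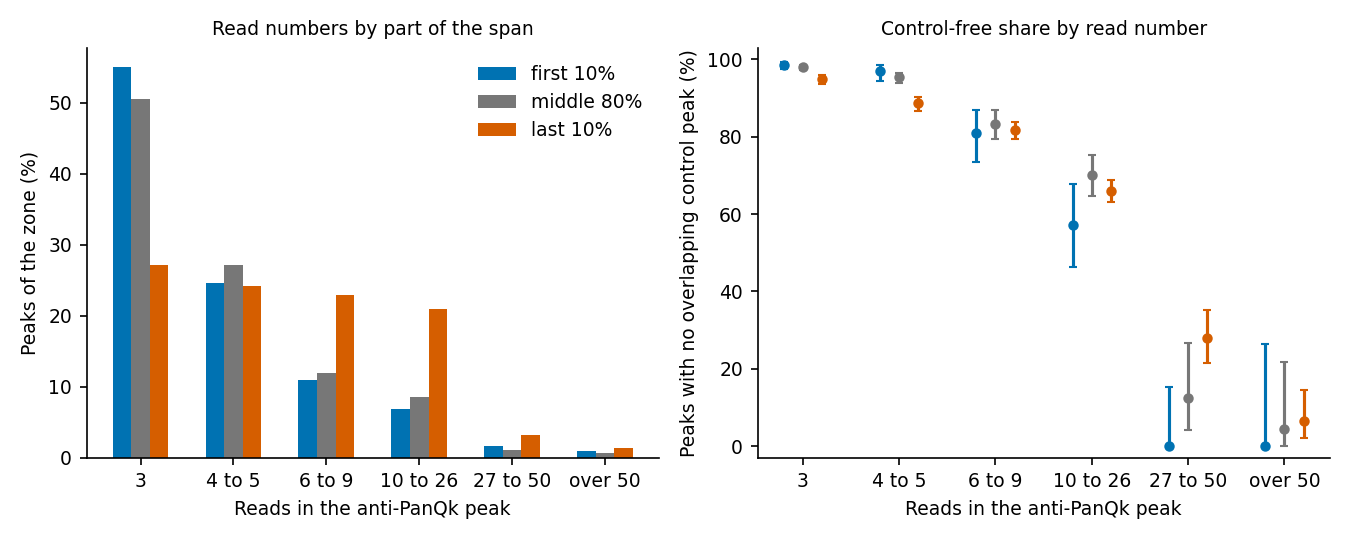
Left, share of the peaks of each part of the span by read number. Right, share with no overlapping control peak in each read class, with exact 95% intervals; upstream peaks (blue) are mostly in the class of 3 reads (55%), and none of the 34 with 27 or more reads is control-free.

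The control list itself had 504 upstream peaks, under 332 of the 999 gene IDs, and 155 of them, or 30.8% (26.7 to 35.0), overlapped an anti-PanQk peak. Their median was 15 reads (quartiles 9 and 19, highest 576), not scaled between lists. How often control peaks in general overlapped an anti-PanQk peak is not given here, so the 30.8% has no general rate beside it. Upstream peaks were listed in both lists at 169 loci, in the anti-PanQk list only at 667 and in the control list only at 163. Since a peak of either list sets the start, no locus could lack an upstream peak in both lists. The 163 are the loci given above as without an upstream anti-PanQk peak. At the 169 shared loci, 250 of 369 upstream anti-PanQk peaks were control-free, or 67.8% (62.7 to 72.5). The 119 overlapped upstream peaks lay at 49 loci, with 59 of them at the 7 loci with the most upstream control peaks. The reads of each were set beside those of the strongest control peak on it. The control peak had more reads in 84 of the 119 cases, fewer in 29 and the same number in 6. These numbers are as listed, and the depth of either library is unknown. Several control peaks could overlap the same anti-PanQk peak, and taking the strongest of them tilts the count toward the control. No such count is given for overlapped anti-PanQk peaks in other parts of the span.

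Loci differed widely in how many upstream peaks they carried. A single one was found at 598 loci, 2 at 161, 3 to 5 at 63 and 6 or more at 14. At loci with a single upstream peak 97.5% (95.9 to 98.6) were control-free, at those with 2 94.4% (91.3 to 96.7), at those with 3 to 5 89.6% (84.6 to 93.3) and at those with 6 or more 61.2% (53.3 to 68.7). Part of this order comes with the peaks that set the start, which were 552 of the 598 in the first class and 11 of the 165 in the last. Among the other upstream peaks the shares were 82.6% (68.6 to 92.2), 93.0% (88.1 to 96.3), 88.5% (82.4 to 93.0) and 59.7% (51.5 to 67.6) in the same classes, so that no steady order held below 6 peaks. The 8 loci with 9 or more held 126 upstream peaks (9.72% of all), of which 57.9% (48.8 to 66.7) were control-free, with a median of 8.5 reads. Without these 8 loci, an alternative chosen after seeing the data, 94.4% (92.9 to 95.6) of the remaining 1170 upstream peaks were control-free. Of the 14 loci with 6 or more upstream peaks, 5 had control-free ones alone, 4 had overlapped ones alone and 5 had both. Of the 101 control-free peaks at these 14 loci, 48 came from 1 locus on chromosome 13. Peaks of a locus are not independent, and the intervals above do not allow for this.

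**Figure D4:**
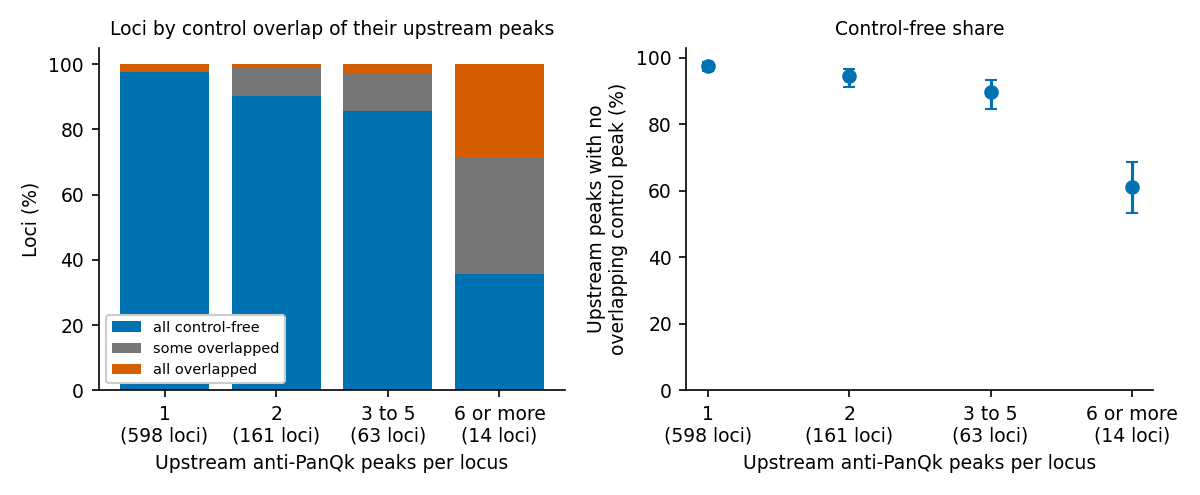
Left, loci by whether all, some or none of their upstream anti-PanQk peaks lack an overlapping control peak, for loci with 1, 2, 3 to 5 and 6 or more upstream peaks. Right, the share of control-free upstream peaks in the same classes, with exact 95% intervals that treat peaks of a locus as independent. The share goes from 97.5% at loci with 1 to 61.2% at loci with 6 or more. Of the 598 peaks in the first class 552 set the start of their span, and 11 of the 165 in the last.

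The fixed rule for named loci took 17, with 165 upstream peaks. It takes the 10 loci with the most upstream peaks, the 10 with the strongest control-free one, the 5 with the highest upstream share among loci with 10 or more anti-PanQk peaks, and the 5 with the most upstream control peaks. The files do not pair the gene IDs with symbols, so the loci are given by their mm9 position, 1-based. At 8 of the 17 every upstream peak was control-free, at 4 every one was overlapped, and 5 had both kinds. Values at these loci are descriptions, since the peaks themselves chose the loci.

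A nearly continuous run of control-free peaks marked the locus with the most upstream peaks. For ENSMUSG00000021215 (minus strand, chromosome 13, 3882180 to 3902260) 48 of the 49 anti-PanQk peaks were upstream, all of them control-free and none within 100 nt of a control peak. They filled 1538 of 1890 nt between 3900371 and 3902260 (81.4%), and 37 of the 47 neighbouring pairs abutted without a gap. They are therefore listed peaks, not separate sites. Reads per peak ran from 3 to 22 with a median of 6.5, and 15 of the 48 had a p-value of at most 1e-06. The 4 peaks in the first 200 nt had 13 to 22 reads, the strongest at 3902189 to 3902260, while the 8 between 600 and 800 nt had 3 to 9. Further in, single peaks again reached 17 and 19 reads. The remaining anti-PanQk peak, of 4 reads, and both control peaks, of 19 and 16 reads, lay further downstream, and the control peak at 3882180 to 3882202 sets the end of the span. With the span taken from the anti-PanQk peaks alone (7937 nt) the window was shorter and held 18 of the 48.

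A similar run lay on the plus strand of chromosome 15 under ENSMUSG00000022337 (43333262 to 43359150). There 16 of 17 anti-PanQk peaks were upstream, between 43333262 and 43335018, and filled 1398 of 1757 nt (79.6%). They were wider, with a median of 73 nt against 29 nt at the chromosome 13 locus. Reads ran from 3 to 19 with a median of 9.5, and the strongest pair, of 19 reads each, were the last of the run (43334699 to 43334863 and 43334864 to 43335018). Inside this run the control had 2 peaks of 11 reads each, which overlapped 3 of the 16, and 13 were control-free. The single other anti-PanQk peak, of 5 reads, sets the downstream end.

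**Figure D5:**
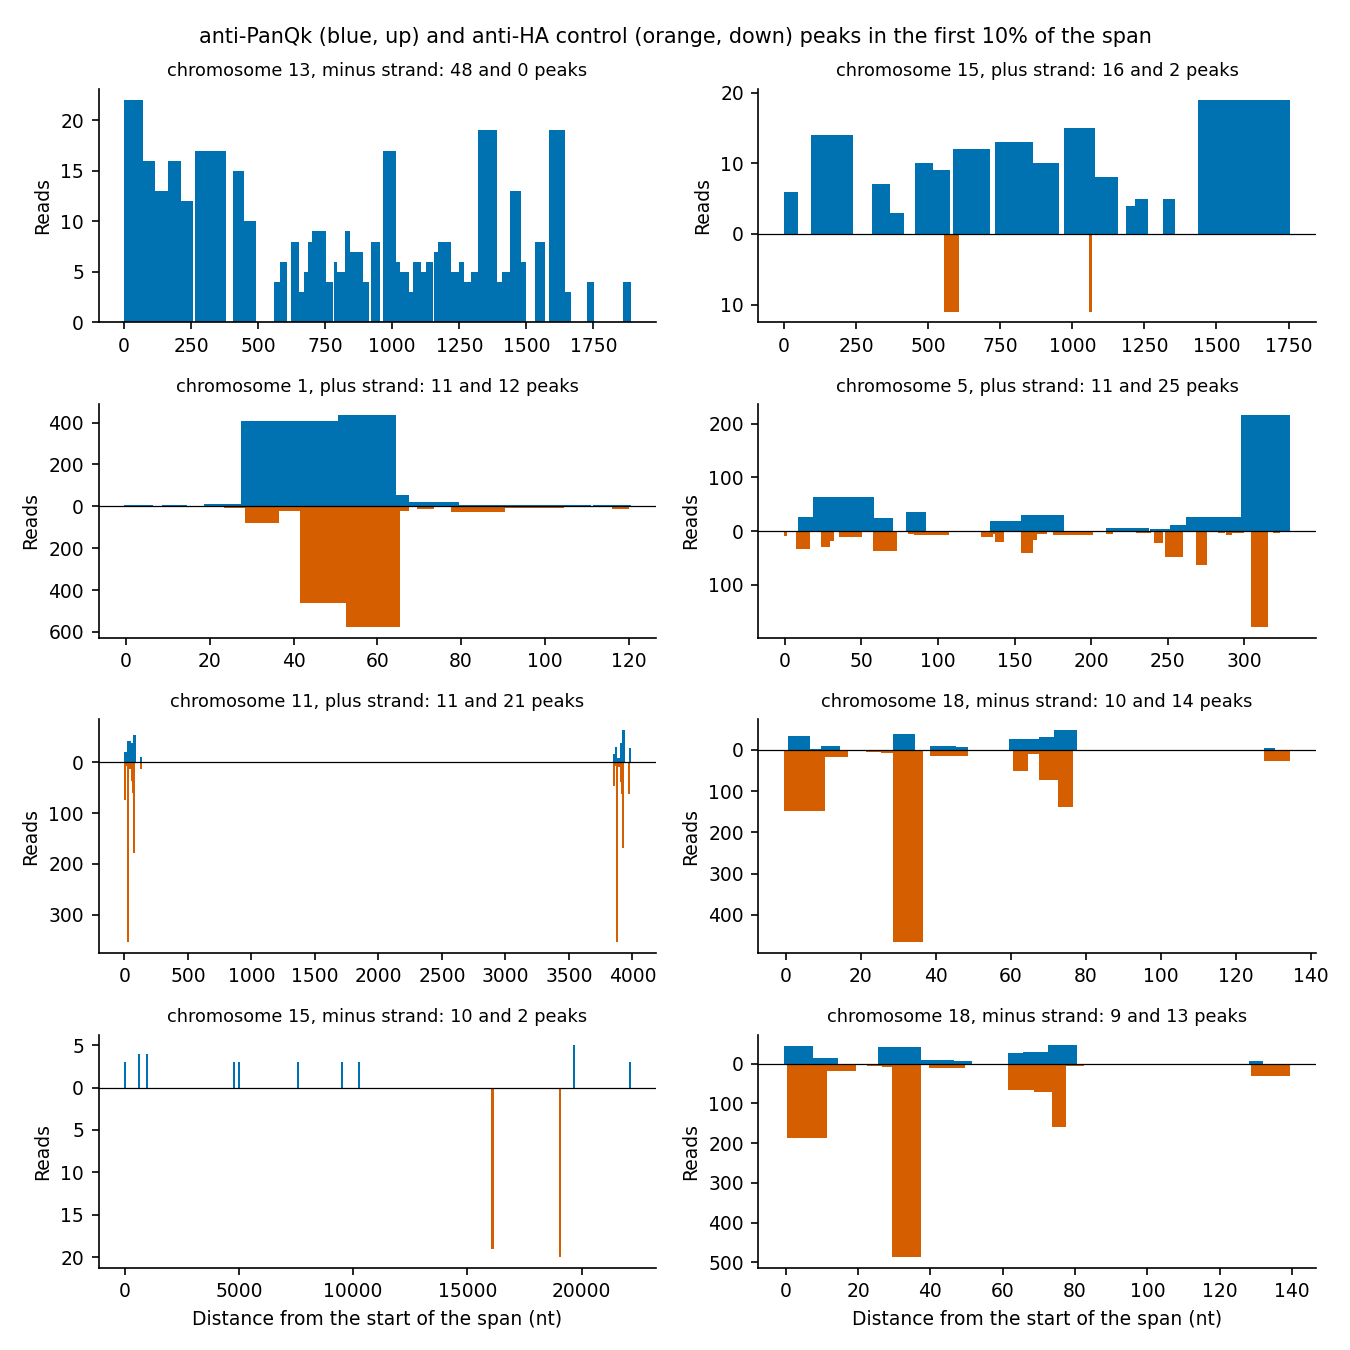
Anti-PanQk peaks (blue, upward) and control peaks (orange, downward) in the first 10% of the span at the 8 loci with 9 or more upstream anti-PanQk peaks; the horizontal axis is the distance from the start of the span in nt and the height is the number of reads, not scaled between lists. The chromosome 13 and the plus-strand chromosome 15 locus show runs of peaks with 0 and 2 control peaks, and the loci on chromosomes 1, 5, 11 and 18 show blocks with control peaks at the same positions.

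At 4 loci every upstream peak was overlapped by a control peak, and many of these peaks were strong and lay in short blocks. At a chromosome 5 locus (plus strand, 147072571 to 147111125), all 11 upstream peaks lay in 322 nt and all were overlapped by the 25 control peaks there. Their reads ran from 3 to 217 with a median of 27, and the control reads from 3 to 179 with a median of 11. The only other anti-PanQk peak of that locus, of 4 reads, lay at the far end of the span. For ENSMUSG00000010342 (plus strand, chromosome 11, 87236368 to 87285058), 11 upstream peaks of 9 to 64 reads lay beside 21 control peaks of 3 to 354 reads. That locus had 59 further anti-PanQk peaks, of up to 119 reads.

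The other 2 of these loci lay on the minus strand of chromosome 18 and had nearly the same peaks. At 14785732 to 14806440, 10 upstream peaks lay in 130 nt, with 3 to 48 reads; these were all the anti-PanQk peaks of that locus, which is eligible only because a control peak lies far downstream. At 10068158 to 10151140, 9 lay in 133 nt, with 6 to 47 reads. When the blocks were laid on each other at their strongest control peak (466 and 487 reads), a comparison chosen after seeing the data, each of the 9 anti-PanQk peaks of the second locus lay within 5 nt of a peak of the first. Reads at the paired positions were 48 and 47, 30 and 30, 25 and 26, 38 and 41, and 33 and 45 for the 5 strongest. Of the 13 control peaks of the second locus, 12 paired with one of the first in the same way, among them peaks of 148 and 188 reads and of 138 and 158 reads. In its upstream window the chromosome 11 locus also held a pair of blocks, one from 87236368 to 87236509 and one from 87240217 to 87240348, whose strongest control peak had 354 reads in each (87236396 to 87236402 and 87240244 to 87240251). Further groups lay downstream of the window. In these, control peaks of 34, 36, 37 and 34 reads began at 87256872, 87262262, 87275920 and 87285003. How reads that fit several places in the genome were assigned is not given in the sources used here, and its part in these values was not tested.

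A further block, overlapped by the control in most of its peaks, had the strongest upstream peaks of the named loci. In ENSMUSG00000085769 (plus strand, chromosome 1, 72283563 to 72301760), 11 upstream peaks lay in 121 nt. Its peaks at 72283591 to 72283613 and 72283614 to 72283627 had 409 and 437 reads, and the strongest control peaks on them had 463 and 576. Of the 11, 9 were overlapped, and the other 2 had a control peak within 100 nt. Its 5 anti-PanQk peaks outside the window reached 821 reads. Among them were peaks of 427 and 509 reads in the middle of the span, where the control had peaks of 490 and 589. The peak of 821 reads, near the downstream end, lay on control peaks of 473 and 554. The upstream block was thus not alone in its read numbers at this locus. The part of reads that fit several places in the genome was not tested here either. At a chromosome 12 locus (plus strand, 79433515 to 79654673), 6 of 7 upstream peaks were overlapped, with up to 70 reads at 79451964 to 79451999, and the 10 control peaks beside them had 3 to 98 reads. The peak that opened this span was the exception, with 3 reads and no control peak near it, 18302 nt ahead of the rest.

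Scattered weak peaks gave the high count at another locus, on the minus strand of chromosome 15 from 52895812 to 53177283. Its 10 upstream peaks were spread over 22119 nt and covered 1.54% of that stretch. They had 3 to 5 reads, 7 of them 3, and all were control-free. Its other 30 anti-PanQk peaks lay along the remaining span with at most 8 reads, so the upstream window held 25% of its peaks. The control had 2 peaks in the window, of 19 and 20 reads.

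The strongest control-free upstream peaks had 19 to 25 reads. The highest, of 25 reads, was at 36538562 to 36538666 on the minus strand of chromosome 15 and opened a group of 4 upstream peaks of 7 to 25 reads in 594 nt, of which 3 were control-free. The next, of 24 reads, was at 144233686 to 144233764 on the plus strand of chromosome 3, where the other 2 upstream peaks had 3 reads and 40 peaks further downstream reached 66. At a chromosome 4 locus (plus strand, 137047313 to 137125758), 6 control-free peaks lay in 2444 nt without a control peak. The first 3 of them had 17, 13 and 23 reads, the last 3 had 3 reads each, and the 6 peaks outside the window reached 12.

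The remaining loci of this kind carried between 1 and 7 upstream peaks. At a chromosome 19 locus (minus strand, 5826060 to 5845361) a peak of 22 reads at 5845287 to 5845361 opened the span, followed by 2 of 4 and 3 reads. A chromosome 3 locus (plus strand, 40612159 to 40620663), where the control had no peak at all, had 3 control-free peaks of 4, 21 and 7 reads that filled 150 of 174 nt. On the minus strand of chromosome 4, a lone upstream peak of 20 reads stood at 125878456 to 125878507, and the other 4 peaks of that locus had at most 4 reads. At a chromosome 17 locus (plus strand, 6434156 to 6450138), again without any control peak, 5 of 6 anti-PanQk peaks were upstream, with 4 to 19 reads. At the last of them (chromosome 4, minus strand, 131887967 to 131908896), 7 of 9 were upstream with 3 to 19 reads, 4 of them control-free but each with a control peak within 100 nt.

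Among overlapped upstream peaks, a few stood far above the control reads. These were chosen after their values were seen. The peak with the most reads of all upstream peaks, 612, lay at 107696394 to 107696403 on the plus strand of chromosome 8, where the overlapping control peak had 29. A peak of 75 reads at 82931783 to 82931815 on the minus strand of chromosome 4 lay on a control peak of 5, and one of 79 reads at 6997255 to 6997355 on the minus strand of chromosome 2 on a control peak of 36. Other strong peaks did not stand apart in this way. The peak of 217 reads on chromosome 5 (147072870 to 147072901) lay on a control peak of 179. Those of 437 and 409 reads on chromosome 1 lay on control peaks of 576 and 463. Without replicates or depths, no error can be given for these differences.

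The upstream share showed no steady order with the length of the span. It was 12% (10.7 to 13.4) at the 252 loci with spans of 5 to 20 kb, 13.8% (12.5 to 15.1) at 20 to 50 kb, 10.7% (9.52 to 12) at 50 to 100 kb and 14.4% (13.0 to 15.8) above 100 kb. Loci with 2 or more upstream peaks made up 19% (14.4 to 24.4) of the shortest class and 32.5% (26.7 to 38.8) of the longest, where the window is also widest in nt. The control-free share was 92.2% (88.5 to 95), 86.6% (82.8 to 89.8), 91.6% (87.5 to 94.6) and 93.9% (90.9 to 96.2) in the 4 classes.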

How the data were processed

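Peak lists of 1 anti-PanQk and 1 anti-HA control myoblast iCLIP library were used, each assigned through the library name in its track line. Peaks were called with CLIPper on mm9, per the file headers, and the p-value of each peak is as the authors deposited it. Alignment tools were Bowtie2 and TopHat, per the submitters' processing notes; for their versions, the library depths and the handling of reads with several matches, nothing is stated (not given in the sources used here). Read numbers were taken from the last part of each peak name. Precision is limited by these numbers, of which 3 is the lowest.

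Positions, overlaps (same strand, at least 1 nt) and intervals were computed with Python 3.11.15, pandas 2.3.3, numpy 2.4.6 and scipy 1.17.1, and the code was tested on simulated lists. No test was run, as each peak list holds 1 library. The members and lists were chosen with earlier results of these data known. The 16 gene lists, myoblast markers included, could not be matched, because 0 of 8233 gene IDs is paired with a symbol in the tables used here. An mm9 genome and annotation were not used here, so no sequence, exon or UTR is given. Named loci follow a fixed rule, given in the text, with ties broken by total reads; its part on gene lists could not be applied. Alternatives were the width of the window, the span, the peak minimum, the p-value, repeated intervals, merging and the overlap.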

Additional observations from a re-analysis of the deposited data

How the results depend on the processing

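No paired analysis was possible because the peak lists used here hold 1 library for anti-PanQk and 1 for the control, both in myoblasts, so that none could be left out. Of 51 values recomputed under alternatives, 26 stayed within the interval of the main value (for the number of peaks, within 1.5 times) and 25 moved. For the median, this is the binomial interval of its order statistics, which was 3 to 3 reads. Against 1296 upstream peaks there were 528 without the most upstream peak of either list, 511 at loci with 10 or more peaks and 145 with p at most 1e-06, each because fewer peaks enter. The upstream share of 12.8% became 10.8% in the first 5%, 15.6% in the first 20%, 5.62% without the most upstream peak, 14.9% with spans from the anti-PanQk peaks alone, 9.01% with 10 or more peaks, 6.66% with p at most 1e-06, 15.1% with peaks within 50 nt merged and 11.8% without the 8 loci with 9 or more upstream peaks. In the same order, loci with 2 or more upstream peaks (23.8%) became 15.1%, 35.5%, 8.81%, 27.6%, 33.6% and 2.10% for the first 6 of these settings. The control-free share of 90.8% was 81.1% without the most upstream peak, 85.5% with 10 or more peaks, 51% with p at most 1e-06, 88% with control peaks within 100 nt counted, 93.7% without control peaks of 10 to 26 reads and 94.4% without the 8 loci. It lay from 90.5% to 91.8% in the other 7 alternatives. The control-free share at p at most 1e-06 is not given here for the other parts of the span, so the 51% has no general rate beside it. The median of 3 reads became 4 without the most upstream peak and with 10 or more peaks. Leaving out the 8 loci was chosen after seeing the data. For the other settings the cause was not tested. The library depths are unknown, and 55% of the upstream peaks rest on 3 reads, the lowest number listed.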

Other observations

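Upstream peaks lay on all 20 nuclear chromosomes with eligible loci, and their share of the eligible peaks differed between them. It was 26% (21.1 to 31.5) on chromosome 13, where 48 of 76 came from 1 locus, and 5.43% (3.79 to 7.51) on the X chromosome, with 34 of 626 peaks at 33 loci. All 34 on the X chromosome were control-free, as were the 39 on chromosome 19, the 27 on chromosome 7 and the 76 on chromosome 13. Over all upstream peaks the control-free share was 90.8%, and the 119 overlapped ones lay at only 49 loci. These counts are therefore not read as a trait of single chromosomes. On chromosome 18, where the pair of blocks with matching peaks lies, 35 of 54 were control-free (64.8%).

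Neighbouring upstream peaks of a locus were often close. Of 460 neighbouring pairs, 154 lay within 50 nt and 90 of these abutted without a gap, 37 of them at the chromosome 13 locus. The median gap was 362 nt. Intervals listed under more than 1 gene ID were rare, at 52 of the 1296 upstream peaks.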
